A study of Rattus norvegicus with 39 samples.

Results

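The 36 genes described here are the cytochromes P450 of families 2 to 4 measured singly in rat liver, out of 14217 genes. They are the genes whose platform symbol places them in those families, read from 40 of the 20826 probe sets with 1 symbol. Cyp2c11, Cyp2c13 and Cyp3a2 were set aside by the rule. A further 4 probe sets name several such genes and were not used, so Cyp2b1 and Cyp2b2 have no value of their own here. Rats aged 5 to 6 weeks were killed 48 h after treatment and RNA from the left lateral lobe was measured on 1 array per animal, and the labels give neither strain nor sex. The 6 compound groups held 5 rats each. ANIT was given at 125 mg/kg in corn oil by mouth, DMN and DNP each at 15 mg/kg in water by mouth, and Roziglitazone, spelled as in the labels, at 1000 mg/kg in methylcellulose by mouth. NMF (1000 mg/kg) and Caerulein (50 µg/kg) were injected intraperitoneally in saline. The 9 control rats were untreated, without vehicle, so each comparison with them takes in the vehicle and the route along with the compound. ANIT, DMN and NMF are called toxicants here because they are known to injure the liver, which the labels do not state. The other compounds are best known for acting elsewhere, Caerulein on the pancreas, DNP as an uncoupler of mitochondria and rosiglitazone on the fat cell receptor PPARG.

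Cytochromes P450 are heme enzymes of the endoplasmic reticulum that insert oxygen into their substrates with electrons passed on by the reductase Por. In hepatocytes, the enzymes of families 2 and 3 oxidize drugs, other foreign compounds and steroids, and those of family 4 mainly hydroxylate fatty acids and eicosanoids. Cyp2e1 is known for activating small toxic molecules, DMN among them. Genes of the Cyp2b and Cyp3a subfamilies are induced through the receptors CAR and PXR, Cyp4a genes through PPARA, and liver injury and inflammation are known to lower many P450 transcripts.

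Levels are log2 of the deposited intensity and are compared only within a gene. Differences are log2 values with the SE from limma, with calls made where the p adjusted over all 14217 genes was under 0.05. The members spanned most of the range of the arrays. Their control means ran from 4.62 for Cyp2a3 to 13.39 for Cyp2c7, and 15 of the 36 lay at 12 or above. The highest intensity in the deposited table was 23152.1, so the most abundant members lay near its upper end, and the part of this in their small differences was not tested. Cyp2a3 and Cyp2b12 were near background in at least 1 group, that is, at or below 4.71, the highest mean among 26 of the 27 control probe sets for spiked RNA. The one left out had a mean of 6.47, and with that level as the floor Cyp2b21, Cyp2g1, Cyp2j10, Cyp2s1, Cyp4f5 and Cyp4f17 would also lie near background in the controls.

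The 3 arrays labelled ANIT 3, DMN 2 and Roziglitazone 2 are called in doubt here. A closer match to another group does not single them out, since 24 of the 39 arrays correlated best with a group other than their own. Across all genes, the deviation of the array labelled ANIT 3 from the mean of the others correlated at 0.301 with its own group and at 0.705 with DMN, and that of Roziglitazone 2 at −0.303 with its own group and at 0.802 with ANIT. The array labelled DMN 2 correlated at 0.00344 with its own group. They stayed in the groups their labels give, and their choice comes from earlier results of these data. Own-group correlations were also below 0 for Roziglitazone 1 (−0.221), control 5 (−0.086) and DNP 1 (−0.0612). For the members alone, the mean deviation from control was −0.17 in DMN 2 against −0.82 to −0.35 in the other DMN arrays, and −0.36 in Roziglitazone 2 against −0.04 to 0.04 in the others of that group. In whole liver, fewer hepatocytes and less RNA per hepatocyte cannot be told apart.

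After each toxicant the called members were lower, apart from Cyp4f5, which was higher after ANIT. With ANIT, 15 of 36 members (41.7%) were called lower and 1 (2.78%) higher, against 8.29% lower and 8.19% higher among all genes. With DMN, 11 members (30.6%) were called lower and 0 higher, against 4.53% lower and 5.87% higher among all genes. With NMF, 11 members (30.6%) were called lower and 0 higher, against 3.63% lower and 3.85% higher. The median difference of the members was −0.47 for ANIT, −0.41 for DMN and −0.26 for NMF, where all genes had medians of −0.09, −0.06 and −0.05. At an unadjusted p under 0.05 in limma, 1 member was higher with DMN and 2 with NMF, where 11.2% and 9.17% of all genes were. These comparisons use the same 9 control arrays, so their values are set side by side and their overlap is not counted. The arrays of the treated and control groups were fully apart for 8 of the 15 lower members with ANIT, 2 of 11 with DMN and 9 of 11 with NMF. These counts are of members already called. The share apart among all called genes was not computed, so they cannot be read as a trait of the members. Averaged over all 36 members, each array of these groups lay below the control mean, from −0.57 to −0.26 for ANIT, −0.82 to −0.17 for DMN and −0.45 to −0.21 for NMF, where the controls ranged from −0.11 to 0.13.

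Without the 3 arrays in doubt, the counts were 2 higher and 15 lower for ANIT, 1 higher and 17 lower for DMN, and 0 higher and 12 lower for NMF, against 7.06%, 6.3% and 4.2% of all genes lower. Leaving out the array labelled DMN 2 alone gave 1 higher and 16 lower for DMN. Centring each array on its median moved the split among all genes. Calls then stood at 1667 higher and 627 lower for ANIT, 1047 and 339 for DMN, and 734 and 309 for NMF, where the fit to the values as deposited gave 1165 and 1179, 834 and 644, and 547 and 516. That centring moved the median of all genes for ANIT from −0.09 to 0.04. The members called lower then numbered 11 for ANIT, 7 for DMN and 7 for NMF. Cyp4f5 was then the single member called higher with ANIT and with DMN.

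**Figure D1:**
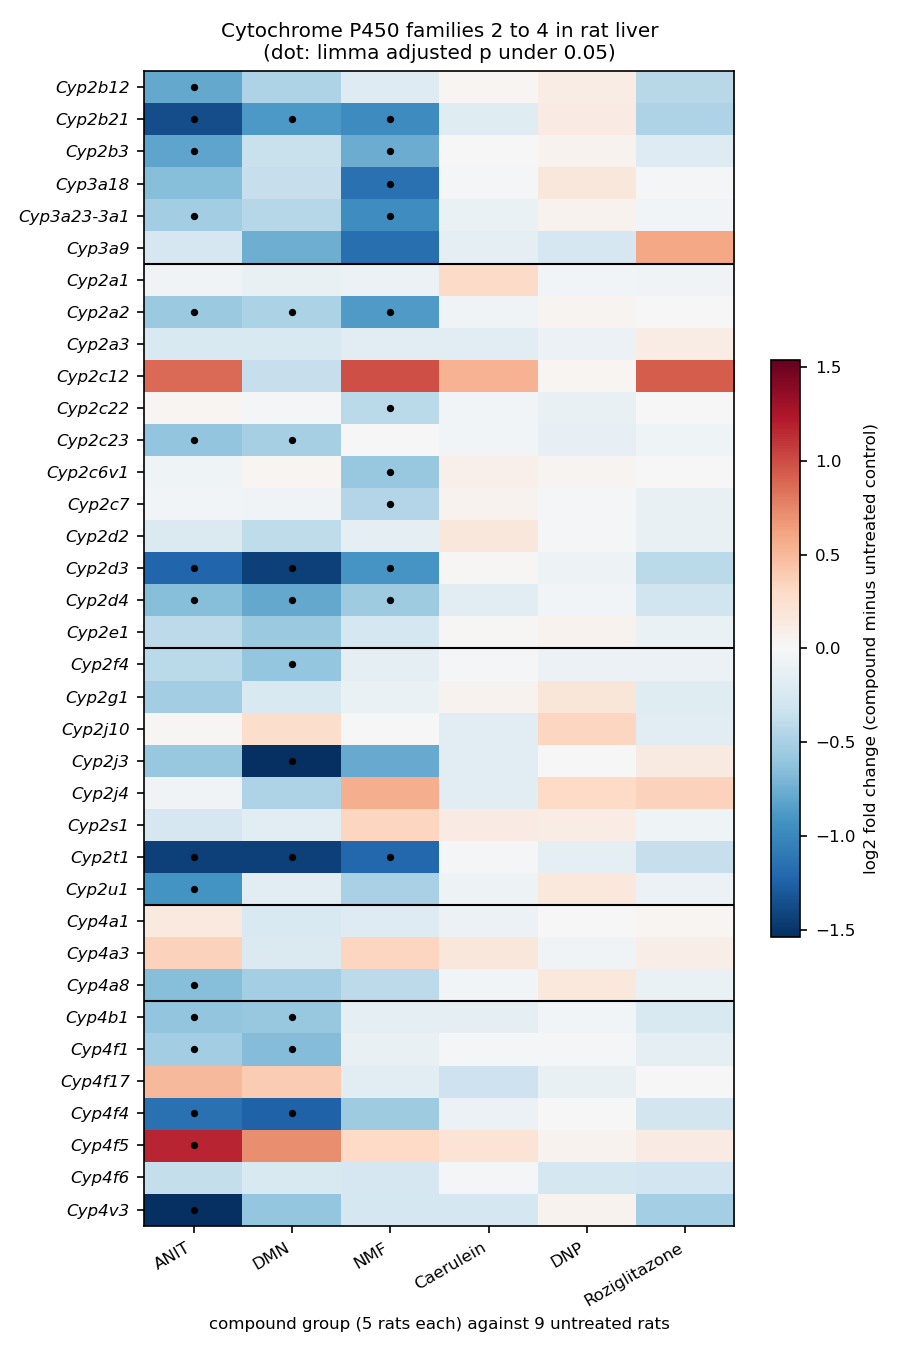
Log2 difference of each of the 36 members between a compound group (5 rats) and the untreated control (9 rats), with colour giving size and direction and a dot marking an adjusted p under 0.05 in limma. Lines separate the Cyp2b and Cyp3a genes, the Cyp2a, 2c, 2d and 2e genes, the other family 2 genes, the Cyp4a genes and the other family 4 genes from top to bottom. The dots lie in the ANIT, DMN and NMF columns alone, and all but Cyp4f5 with ANIT mark lower levels.

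The members from the Cyp2b and Cyp3a subfamilies, known for their induction by drugs, included none called higher with any compound. Cyp2b1 and Cyp2b2, without a value of their own, and Cyp3a2, set aside by the rule, are not among them. Of these 6 members, 4 fell with ANIT, 1 with DMN and 4 with NMF, and their medians were −0.72, −0.45 and −0.96. Among all genes, 8.29%, 4.53% and 3.63% were called lower, and among all 36 members 41.7%, 30.6% and 30.6%. Cyp2b21 was lower with each toxicant. Its level ran from 5.70 through a median of 6.13 to 7.02 in the controls, and was 4.66, 5.12, 4.79, 4.53 and 4.90 with ANIT, 4.80, 5.39, 5.71, 4.98 and 5.58 with DMN, and 5.63, 5.47, 5.08, 4.32 and 5.50 with NMF. In the other groups it was 5.83, 5.62, 6.32, 5.74 and 6.38 with Caerulein, 7.12, 6.44, 5.43, 6.52 and 6.01 with DNP, and 6.61, 5.21, 5.71, 5.10 and 5.89 with Roziglitazone. The ANIT and NMF rats all lay below the lowest control, and 1 DMN rat lay inside the control range. The differences were −1.37 ± 0.25 (adjusted p = 1.84e-04) for ANIT, −0.88 ± 0.25 (adjusted p = 0.0175) for DMN and −0.97 ± 0.25 (adjusted p = 0.00976) for NMF. The DMN call was lost without DMN 1 (−0.75, adjusted p = 0.0743) or DMN 4 (−0.80, adjusted p = 0.0603), and the NMF call without NMF 4 (−0.75, adjusted p = 0.078). Cyp2b3, an abundant gene of the same subfamily, fell by 1.75-fold with ANIT and 1.7-fold with NMF, and its DMN value was −0.34 ± 0.15 (adjusted p = 0.169). Cyp2b12 was near background with ANIT and at least 1.33-fold lower than control (adjusted p = 0.00699), or −0.68 with an adjusted p = 0.0539 under the replicate block.

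Cyp3a18, a steroid-hydroxylating enzyme, had its lowest group mean with NMF. Control levels ran from 11.91 through a median of 12.33 to 12.53, and the toxicant rats had 11.64, 11.32, 12.07, 11.77 and 10.94 with ANIT, 11.62, 12.26, 11.43, 12.16 and 11.71 with DMN, and 9.72, 11.77, 11.74, 11.78 and 10.22 with NMF. The other compounds gave 12.40, 11.73, 12.51, 12.42 and 11.76 with Caerulein, 12.53, 11.92, 12.59, 12.58 and 12.28 with DNP, and 12.50, 11.64, 12.71, 12.18 and 11.87 with Roziglitazone. All 5 NMF rats were below the lowest control, with 2 of them more than 1 log2 unit lower than the other 3. The NMF difference was −1.15 ± 0.26 (adjusted p = 0.00273), a 2.23-fold fall. The ANIT difference was −0.65 ± 0.26 (adjusted p = 0.0772) with all arrays and −0.78 ± 0.27 (adjusted p = 0.0452) without the arrays in doubt, and the DMN difference was −0.36 ± 0.26 (adjusted p = 0.423). Cyp3a23-3a1, the gene induced by dexamethasone and other PXR ligands, fell by 1.94-fold with NMF (adjusted p = 3.42e-04), where the groups were apart, and by 1.46-fold with ANIT (adjusted p = 0.0329). The ANIT call of Cyp3a23-3a1 was lost after centring (−0.41, adjusted p = 0.164), under the replicate block (adjusted p = 0.0506), in the fit to those groups alone (adjusted p = 0.0513), and without ANIT 2, ANIT 4 or ANIT 5 (adjusted p of 0.0879, 0.0561 and 0.173).

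Cyp3a9, known for its control by sex hormones, was not called and varied widely between rats. It ran from 7.43 through a median of 9.93 to 10.38 in the controls. The toxicant rats had 9.70, 10.69, 5.99, 10.15 and 8.66 with ANIT, 8.18, 7.97, 9.46, 7.92 and 9.22 with DMN, and 8.63, 8.24, 9.56, 7.41 and 6.88 with NMF. Under the other compounds its levels were 10.27, 7.87, 10.35, 9.61 and 7.66 with Caerulein, 8.84, 8.94, 10.05, 8.26 and 9.11 with DNP, and 9.38, 10.46, 9.65, 10.70 and 9.24 with Roziglitazone. Every group overlapped the controls. Its NMF difference of −1.16 ± 0.59 (adjusted p = 0.277) had an interval of −2.35 to 0.04, so neither no change nor a fall as large as that of Cyp3a18 lay outside it.

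Other targets of CAR and PXR, on a list of 10 genes outside the P450s of which 7 were measured, had calls in the other direction alone. With ANIT 5 rose and 0 fell, with DMN 4 rose and 0 fell, and with NMF 5 rose and 0 fell, with list medians of 1.12, 0.97 and 1.70. These counts were the same after centring and after a second quantile normalization. Among all genes, 8.19% were called higher with ANIT, 5.87% with DMN and 3.85% with NMF. The part of CAR and PXR in these rises was not tested. Akr7a3, an aldehyde reductase, rose 9.75-fold with NMF (3.28 ± 0.28, adjusted p = 1.78e-10). Abcc3, an export pump of the basolateral membrane, rose 26.3-fold with NMF and 19.7-fold with ANIT, and its DMN difference was 0.75 ± 0.70 (adjusted p = 0.571). Ephx1, the microsomal epoxide hydrolase, rose 2.75-fold with NMF and 2.17-fold with ANIT, and Aldh1a1 between 3.24-fold and 3.63-fold with the toxicants. The summed intensity of these 7 genes was 7750 to 13545 in the controls, 17745 to 28313 with ANIT, 9973 to 28447 with DMN and 25929 to 41061 with NMF.

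Among the 12 abundant hydroxylases of the Cyp2a, 2c, 2d and 2e subfamilies, 4 fell with ANIT, 4 with DMN and 6 with NMF, and none rose. The shares of all genes called lower were 8.29%, 4.53% and 3.63%. With each gene read from its brightest probe set, Cyp2d3 had the largest called change of the 12. It belongs to the subfamily that oxidizes many basic drugs. Its control levels were tightly grouped, from 12.56 through a median of 12.65 to 12.80. With the toxicants it measured 11.33, 11.39, 11.29, 11.70 and 11.49 with ANIT, 11.57, 12.62, 11.01, 11.25 and 9.66 with DMN, and 11.56, 11.97, 11.89, 11.66 and 11.69 with NMF. The other compounds left it at 12.74, 12.62, 12.67, 12.77 and 12.62 with Caerulein, 12.36, 12.60, 12.58, 12.62 and 12.72 with DNP, and 12.10, 11.41, 12.59, 12.47 and 12.66 with Roziglitazone. Every toxicant rat except the one labelled DMN 2 was below every control, and Roziglitazone 2 was also low. The differences were −1.22 ± 0.23 (adjusted p = 3.74e-04) for ANIT, −1.44 ± 0.23 (adjusted p = 8.79e-05) for DMN and −0.91 ± 0.23 (adjusted p = 0.0111) for NMF. Without the arrays in doubt, they were −1.18 ± 0.18 (adjusted p = 1.46e-05), −1.79 ± 0.18 (adjusted p = 7.96e-09) and −0.91 ± 0.17 (adjusted p = 3.34e-04). Cyp2d4 fell with them, by 1.58-fold, 1.73-fold and 1.47-fold, and its dimmer second probe set gave differences of −1.46 ± 0.24, −1.64 ± 0.24 and −1.30 ± 0.24, each larger than that of Cyp2d3. The NMF call of Cyp2d4 was lost after centring (−0.46, adjusted p = 0.0631), with the replicate block (adjusted p = 0.0859) and without NMF 5 (adjusted p = 0.0595). Cyp2d2 was not called, at −0.22 ± 0.16 (adjusted p = 0.35), −0.39 ± 0.16 (adjusted p = 0.132) and −0.15 ± 0.16 (adjusted p = 0.69).

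Bases upstream of the start of Cyp2d3 and of Cyp2t1, both called lower with ANIT, DMN and NMF, are printed with those of Cyp2c7, called lower with NMF, and of Cyp2c23, called lower with ANIT and DMN. Each is the 250 bases before the gene start in RefSeq on GRCr8, written 5′ to 3′ on the gene's strand, with matches to 5 motifs in capitals.
Cyp2d3, chr7:115802143-115802392, − strand: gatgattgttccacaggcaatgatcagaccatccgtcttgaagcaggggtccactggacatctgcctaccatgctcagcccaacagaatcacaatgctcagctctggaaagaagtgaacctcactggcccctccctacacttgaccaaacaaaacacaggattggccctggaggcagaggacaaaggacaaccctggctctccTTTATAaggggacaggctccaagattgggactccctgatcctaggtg
Cyp2t1, chr1:91575260-91575509, + strand: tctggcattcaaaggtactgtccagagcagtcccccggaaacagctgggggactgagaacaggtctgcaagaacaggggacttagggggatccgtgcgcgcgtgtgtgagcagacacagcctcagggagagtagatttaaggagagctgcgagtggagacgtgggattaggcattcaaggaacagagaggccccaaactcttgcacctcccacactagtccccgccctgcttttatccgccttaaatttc
Cyp2c7, chr1:247966144-247966393, + strand: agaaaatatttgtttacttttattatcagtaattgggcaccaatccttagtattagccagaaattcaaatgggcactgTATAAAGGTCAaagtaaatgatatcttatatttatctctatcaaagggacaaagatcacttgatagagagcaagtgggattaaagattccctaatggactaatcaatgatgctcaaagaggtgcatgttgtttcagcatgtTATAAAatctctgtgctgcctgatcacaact
Cyp2c23, chr1:252863068-252863317, − strand: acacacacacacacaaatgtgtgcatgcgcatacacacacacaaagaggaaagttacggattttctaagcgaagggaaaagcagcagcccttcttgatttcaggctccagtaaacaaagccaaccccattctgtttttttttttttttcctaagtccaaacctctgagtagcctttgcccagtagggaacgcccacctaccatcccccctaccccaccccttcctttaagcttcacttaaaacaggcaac
The motifs were searched on both strands. They were the nuclear receptor hexamer AGGTCA, the HNF1 core GTTAAT, the HNF4 core CAAAGTCCA, the C/EBP motif TTGCNNAA and the TATA box TATAAA. In Cyp2d3 a TATA box on the opposite strand began 47 bases before the start. Cyp2c7 held TATA boxes beginning 172 and 31 bases before the start and AGGTCA beginning 167 bases before it, whose first base is the last of the farther TATA box. Neither Cyp2t1 nor Cyp2c23 held any of these letters in its window. Promoters were found for 30 of the 36 members; Cyp2a2, Cyp2c6v1, Cyp4a1, Cyp4f17, Cyp4f4 and Cyp4v3 had no entry. AGGTCA was in 9 of the 30 (30%) and in 14.1% of all 33469 promoters of the table, TTGCNNAA in 10 (33.3%) and 9.22%, TATAAA in 7 (23.3%) and 12.9%, GTTAAT in 4 (13.3%) and 6.45%, and CAAAGTCCA in 1 (3.33%) and 0.338%. Of the 17 members with a promoter that were called lower with a toxicant, 6 held AGGTCA and 4 TTGCNNAA, and of the other 13, 3 and 6 did. A match describes the letters and says nothing of binding.

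Cyp2a2, a testosterone hydroxylase, fell by 1.48-fold with ANIT, 1.4-fold with DMN and 1.83-fold with NMF (adjusted p = 0.00521, 0.0218 and 6.19e-05), and its ANIT and DMN calls were lost after centring. The DMN call of Cyp2a2 was also lost without DMN 5 (adjusted p = 0.0869), under the replicate block (adjusted p = 0.0807) and in the fit to those groups alone (adjusted p = 0.0587). Within the Cyp2c subfamily, different members were called with different compounds. The arachidonic acid epoxygenase Cyp2c23 fell with ANIT (−0.61 ± 0.14, adjusted p = 0.00218) and DMN (−0.51 ± 0.14, adjusted p = 0.0119) and stood at 0.00 ± 0.14 with NMF. Its DMN call was lost after centring (−0.41, adjusted p = 0.128), under the replicate block (adjusted p = 0.0654), in the fit to those groups alone (adjusted p = 0.105) and without DMN 5 (adjusted p = 0.089). Cyp2c6v1, Cyp2c7 and the retinoid hydroxylase Cyp2c22 fell with NMF, by 1.5-fold, 1.37-fold and 1.32-fold, and their differences with ANIT and DMN lay between −0.07 and 0.03. These 3 NMF calls were lost after centring, with Cyp2c6v1 at −0.49 (adjusted p = 0.0541). The NMF call of Cyp2c22 was also lost without any 1 of 7 arrays, at an adjusted p between 0.0562 and 0.143: NMF 1, NMF 2, NMF 5 and controls 3, 4, 6 and 8. It was lost too under the replicate block (adjusted p = 0.0687) and in the fit to those groups alone (adjusted p = 0.0584).

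In each rat, Cyp2c6v1 measured 12.81, 12.98, 13.25, 12.73 and 13.02 with ANIT, 13.08, 13.21, 13.16, 13.28 and 12.55 with DMN, and 12.19, 12.18, 12.51, 12.73 and 12.60 with NMF, with controls from 12.61 through a median of 13.04 to 13.29. The remaining groups had 13.10, 13.25, 13.16, 13.02 and 13.00 with Caerulein, 12.79, 13.35, 13.03, 13.09 and 13.07 with DNP, and 12.62, 13.17, 12.93, 13.12 and 13.28 with Roziglitazone. Of the NMF rats, 1 was above the lowest control. The NMF difference was −0.58 ± 0.14 (adjusted p = 0.00433). Cyp2c12, a steroid hydroxylase with a wide spread in the controls (11.81 ± 0.69, SD, n = 9), was higher in all 5 NMF rats than in any control (12.80 ± 0.11, SD, n = 5), but its difference of 0.99 ± 0.39 (adjusted p = 0.123) was not called. Without the arrays in doubt it was called higher with ANIT, at 1.17 ± 0.39 (adjusted p = 0.0351). Among the genes set aside, larger falls were measured. Cyp2c11 differed by −2.70 ± 0.37 (adjusted p = 5.88e-06) with ANIT, and Cyp2c13 by −2.18 ± 0.21 (adjusted p = 2.84e-09) with NMF.

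Cyp2e1, the ethanol-inducible enzyme that activates DMN, was not called with any compound. Controls ran from 12.98 through a median of 13.39 to 13.54, and the toxicant rats had 13.12, 12.92, 13.06, 13.12 and 12.26 with ANIT, 13.07, 13.40, 13.12, 12.71 and 11.32 with DMN, and 13.08, 13.19, 13.18, 12.59 and 13.08 with NMF. The other groups had 13.24, 13.30, 13.35, 13.30 and 13.39 with Caerulein, 12.99, 13.41, 13.41, 13.52 and 13.43 with DNP, and 12.87, 13.00, 13.42, 13.41 and 13.28 with Roziglitazone. Each toxicant group overlapped the controls, and DMN 5 was far below the rest. The differences were −0.40 ± 0.20 (adjusted p = 0.17) for ANIT, −0.57 ± 0.20 (adjusted p = 0.0612) for DMN and −0.27 ± 0.20 (adjusted p = 0.517) for NMF, with intervals of −0.81 to 0.01, −0.98 to −0.17 and −0.68 to 0.14. The DMN value was called without the array labelled DMN 2 (−0.74 ± 0.21, adjusted p = 0.0123), without DMN 3 (−0.67 ± 0.22, adjusted p = 0.0493) and without control 5 (−0.61 ± 0.21, adjusted p = 0.0455).

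Of the 8 other members of family 2, 2 fell with ANIT, 3 with DMN and 1 with NMF, where 8.29%, 4.53% and 3.63% of all genes did. Cyp2t1, an enzyme with few known substrates, fell with each toxicant. It ran from 9.64 through a median of 10.27 to 10.89 in the controls. Its toxicant levels were 9.21, 9.04, 8.41, 8.90 and 8.59 with ANIT, 8.42, 10.03, 8.57, 8.91 and 8.24 with DMN, and 9.02, 8.73, 9.26, 9.32 and 8.96 with NMF. In the remaining groups it was 10.27, 10.12, 10.63, 10.29 and 9.95 with Caerulein, 9.91, 9.61, 10.10, 10.35 and 10.67 with DNP, and 10.09, 8.62, 10.28, 10.35 and 10.27 with Roziglitazone. All toxicant rats but the one labelled DMN 2 lay below the controls, and Roziglitazone 2 lay among the toxicant rats. The falls were 2.72-fold with ANIT (−1.44 ± 0.25, adjusted p = 9.12e-05), 2.71-fold with DMN (−1.44 ± 0.25, adjusted p = 1.54e-04) and 2.32-fold with NMF (−1.21 ± 0.25, adjusted p = 0.00102). Without the arrays in doubt the DMN difference was −1.74 ± 0.18 (adjusted p = 1.11e-08).

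Cyp2j3, an arachidonic acid epoxygenase, had the largest fall with DMN. Control rats ran from 10.81 through a median of 10.96 to 11.77. Toxicant rats had 9.96, 10.59, 9.84, 11.01 and 11.11 with ANIT, 9.65, 11.08, 10.16, 9.29 and 7.56 with DMN, and 9.47, 10.23, 10.79, 10.58 and 10.43 with NMF. Rats of the other groups had 10.86, 11.10, 10.86, 11.21 and 10.55 with Caerulein, 11.12, 10.80, 11.36, 11.15 and 10.97 with DNP, and 11.64, 10.88, 11.22, 11.36 and 11.00 with Roziglitazone. The array labelled DMN 2 lay inside the control range and DMN 5 more than 1 log2 unit below any other rat. The DMN difference was −1.53 ± 0.31 (adjusted p = 8.87e-04), and −1.92 ± 0.28 (adjusted p = 8.02e-06) without the arrays in doubt. With ANIT it was −0.58 ± 0.31 (adjusted p = 0.193) and with NMF −0.78 ± 0.31 (adjusted p = 0.124). Its second, dimmer probe set was called with all 3 toxicants, at −1.28 ± 0.35, −1.97 ± 0.35 and −1.16 ± 0.35. Cyp2u1, a fatty acid hydroxylase, fell with ANIT (−0.92 ± 0.19, adjusted p = 7.94e-04), with the groups apart, and Cyp2f4, which oxidizes naphthalene, with DMN (−0.60 ± 0.17, adjusted p = 0.0192). The Cyp2f4 call was lost after centring (−0.50, adjusted p = 0.0984), under the replicate block (adjusted p = 0.113), in the fit to those groups alone (adjusted p = 0.0792) and without DMN 3 or DMN 5 (adjusted p of 0.0698 and 0.115).

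Of the 3 Cyp4a genes, fatty acid omega-hydroxylases induced through PPARA, 1 fell with ANIT and 0 were called with DMN or NMF. Among all genes, 8.29% were called lower with ANIT, 4.53% with DMN and 3.63% with NMF. Cyp4a1 was called in no comparison with control. Its levels ran from 11.05 through a median of 11.29 to 11.81 in the controls and were 10.98, 11.60, 11.81, 11.88 and 11.38 with ANIT, 11.51, 10.52, 11.57, 11.46 and 10.64 with DMN, and 11.40, 11.26, 11.40, 10.93 and 10.92 with NMF. With the other compounds they were 11.41, 11.40, 11.23, 11.30 and 11.09 with Caerulein, 11.22, 11.70, 11.97, 11.17 and 10.84 with DNP, and 11.54, 11.33, 11.13, 11.50 and 11.53 with Roziglitazone. All groups overlapped. The intervals of its differences were −0.21 to 0.52 for ANIT, −0.60 to 0.13 for DMN, −0.56 to 0.17 for NMF and −0.33 to 0.39 for Roziglitazone. Cyp4a3 stood at 0.36 ± 0.23 (adjusted p = 0.293) with ANIT. Cyp4a8 fell with ANIT (−0.65 ± 0.21, adjusted p = 0.03), a call lost after centring, after a second quantile normalization, under the replicate block (adjusted p = 0.0747), without the arrays in doubt (−0.59, adjusted p = 0.0585) and without ANIT 2, ANIT 3, ANIT 4, control 6, control 7 or control 9 (adjusted p between 0.0505 and 0.0741). The second, slightly dimmer probe set of Cyp4a8 was called lower with ANIT (−1.35 ± 0.43, adjusted p = 0.0348) and not called with DMN or NMF. Of 9 measured PPARA targets outside the P450s, 2 rose and 1 fell with ANIT, and 2 rose and 1 fell with DMN. With NMF 1 rose and 0 fell. The shares of all genes that rose and fell were 8.19% and 8.29%, 5.87% and 4.53%, and 3.85% and 3.63%. After centring, and after a second quantile normalization, 3 rose and 1 fell with ANIT, the added one being Cpt1b. Vnn1, a pantetheinase, rose 2.19-fold with ANIT and 2.15-fold with NMF, and Ehhadh, an enzyme of peroxisomal fatty acid oxidation, fell 2.98-fold with DMN.

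The other family 4 genes held the one rise among the calls. Of 7, 4 fell and 1 rose with ANIT, 3 fell with DMN and none was called with NMF. Among all genes, 8.29% fell and 8.19% rose with ANIT, 4.53% fell with DMN and 3.63% with NMF. Cyp4f4, which hydroxylates leukotrienes and related eicosanoids, ran from 10.69 through a median of 11.08 to 11.51 in the controls and was 10.29, 9.59, 9.78, 10.32 and 9.69 with ANIT, 9.81, 10.52, 9.83, 10.07 and 8.97 with DMN, and 10.72, 10.40, 10.94, 10.22 and 10.40 with NMF. Elsewhere it was 11.09, 11.28, 11.08, 10.98 and 10.55 with Caerulein, 11.33, 10.90, 10.94, 11.07 and 11.13 with DNP, and 11.29, 9.88, 11.03, 10.97 and 10.87 with Roziglitazone. Every ANIT and DMN rat was below every control, and the NMF rats overlapped them. The falls were 2.22-fold with ANIT (−1.15 ± 0.20, adjusted p = 1.07e-04) and 2.37-fold with DMN (−1.24 ± 0.20, adjusted p = 6.95e-05), and the NMF value was −0.55 ± 0.20 (adjusted p = 0.0905), or −0.55 ± 0.17 (adjusted p = 0.0329) without the arrays in doubt. Cyp4f1, of the same function, fell by 1.45-fold with ANIT and 1.6-fold with DMN, with both groups apart from the controls, and Cyp4b1 by 1.53-fold and 1.49-fold. Centring lost the ANIT call of Cyp4f1 (−0.40, adjusted p = 0.0959) and the DMN call of Cyp4b1 (−0.47, adjusted p = 0.0638). The DMN call of Cyp4b1 was also lost in the fit to those groups alone (adjusted p = 0.0735) and without DMN 1, DMN 3, DMN 4 or control 1 (adjusted p of 0.101, 0.0702, 0.138 and 0.0541), and its ANIT call without ANIT 3 (adjusted p = 0.0529).

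Cyp4f5 rose with ANIT. Its controls ran from 5.18 through a median of 5.81 to 6.21, and the toxicant rats had 7.34, 6.46, 6.99, 7.51 and 6.36 with ANIT, 6.51, 5.21, 6.99, 6.19 and 7.51 with DMN, and 6.22, 5.88, 6.05, 6.13 and 6.08 with NMF. The other compounds gave 5.38, 6.25, 5.89, 6.20 and 6.11 with Caerulein, 6.15, 5.95, 5.55, 5.47 and 5.92 with DNP, and 5.36, 6.45, 6.16, 5.92 and 5.54 with Roziglitazone. All 5 ANIT rats were above every control, and the array labelled DMN 2 was the lowest of the DMN group. The ANIT difference was 1.17 ± 0.25 (adjusted p = 0.00101), a 2.25-fold rise. With DMN it was 0.72 ± 0.25 (adjusted p = 0.0543) with all arrays, and 1.04 ± 0.23 (adjusted p = 0.00125) without the arrays in doubt, where it was called.

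Cyp4v3, a fatty acid hydroxylase, fell with ANIT, by an amount that rested on 1 rat. Controls ran from 10.69 through a median of 11.22 to 11.45. The toxicant rats had 10.18, 9.99, 10.95, 10.24 and 6.73 with ANIT, 10.77, 10.05, 11.35, 10.92 and 9.70 with DMN, and 11.03, 10.95, 11.42, 10.77 and 10.27 with NMF. The others had 11.10, 11.11, 11.26, 10.87 and 10.08 with Caerulein, 11.38, 11.20, 11.02, 11.19 and 11.26 with DNP, and 11.51, 8.31, 11.37, 11.39 and 10.60 with Roziglitazone. ANIT 5 and Roziglitazone 2 were far below the rest, and ANIT 3 lay inside the control range. The ANIT difference was −1.54 ± 0.44 (adjusted p = 0.0131). It was −0.81 ± 0.35 (adjusted p = 0.125) without ANIT 5, and −1.87 ± 0.38 (adjusted p = 5.43e-04) without the arrays in doubt. The dimmer second probe set of Cyp4v3 gave −0.86 ± 0.34 (adjusted p = 0.0916).

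**Figure D2:**
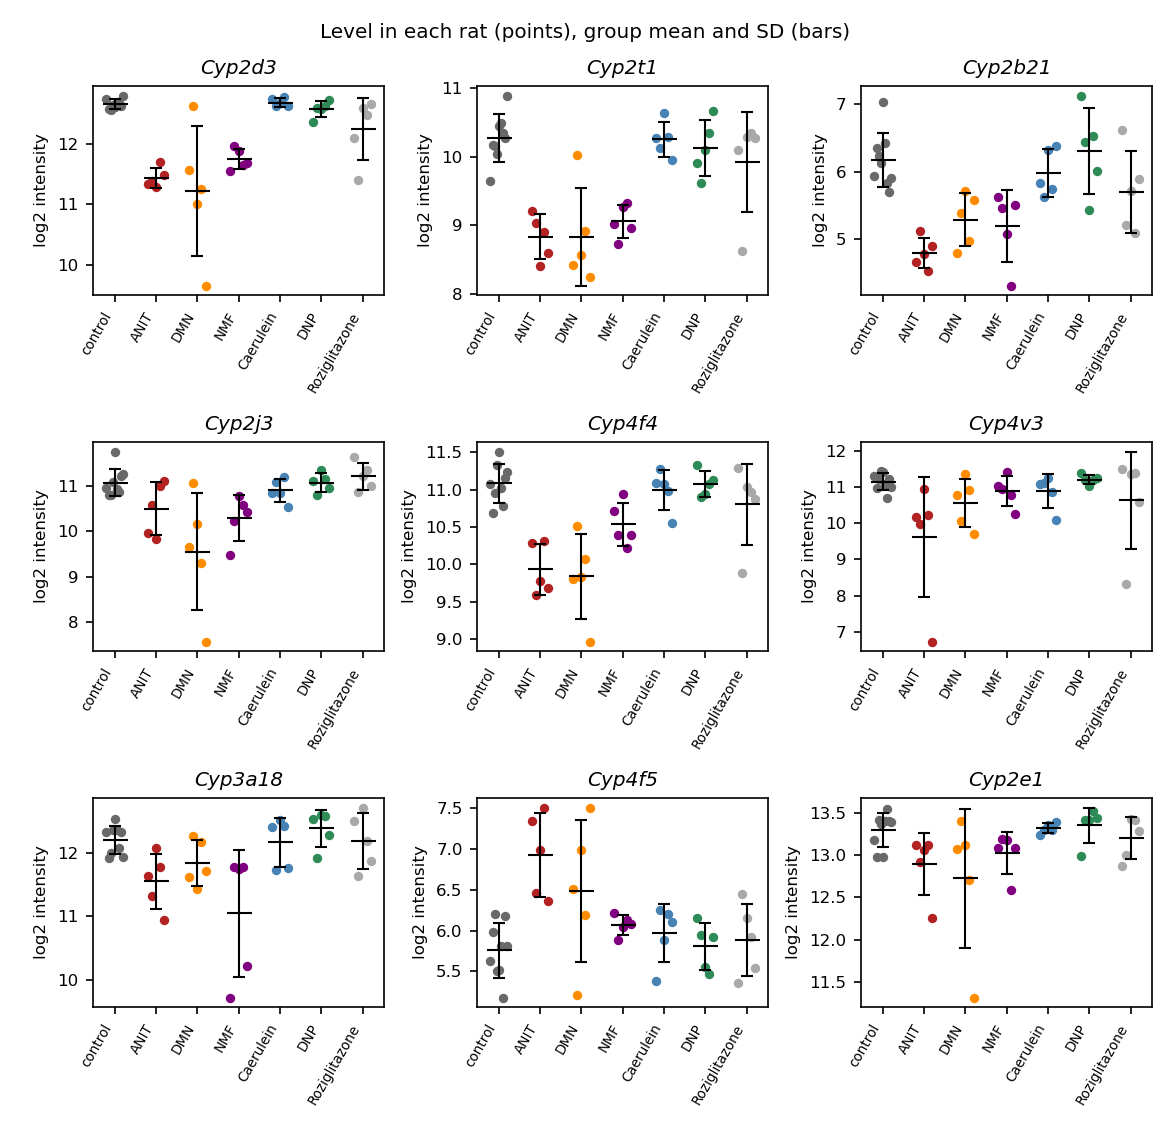
Log2 intensity of 9 members in each rat (points) of the 7 groups, with the group mean and SD as bars (n = 9 controls, 5 per compound). Cyp2d3 and Cyp2t1 are low in the ANIT, DMN and NMF rats except DMN 2, and Roziglitazone 2 lies apart from its group in Cyp2d3, Cyp2t1, Cyp4f4 and Cyp4v3.

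In all, 22 members (61.1%) were called against control with at least 1 toxicant and 14 with none, where 24.8% of all genes were called with at least 1. The latter were Cyp2a1, Cyp2a3, Cyp2c12, Cyp2d2, Cyp2e1, Cyp2g1, Cyp2j4, Cyp2j10, Cyp2s1, Cyp3a9, Cyp4a1, Cyp4a3, Cyp4f6 and Cyp4f17. Among those not described so far, Cyp2g1, an enzyme known from the olfactory mucosa, stood at −0.53 ± 0.20 (adjusted p = 0.0625) with ANIT. Cyp4f17 stood at 0.50 ± 0.20 (adjusted p = 0.0838) with ANIT and 0.39 ± 0.20 (adjusted p = 0.24) with DMN, and Cyp4f6 at −0.37 ± 0.16 (adjusted p = 0.108) with ANIT. Cyp2a1, a testosterone hydroxylase, differed by −0.05 ± 0.26, −0.12 ± 0.26 and −0.09 ± 0.26 with ANIT, DMN and NMF, and Cyp2j10 by 0.02 ± 0.21, 0.27 ± 0.21 and 0.01 ± 0.21.

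With Caerulein, DNP and Roziglitazone no member was called by limma, in either direction, and no gene of the 14217 was (0% higher and 0% lower in each). At an unadjusted p under 0.05 in limma, 0 members differed with Caerulein, 0 with DNP and 2 with Roziglitazone. The 2 were Cyp2c12 (0.93 ± 0.39, adjusted p = 0.651) and Cyp2b12 (−0.43, adjusted p = 0.672, near background). Of all genes at that p, 1.51% were higher and 2.29% lower with Caerulein, and 0.851% and 0.549% with DNP. With Roziglitazone 2.92% were higher and 4.42% lower. The members' differences lay between −0.32 and 0.53 for Caerulein, −0.27 and 0.33 for DNP, and −0.52 and 0.93 for Roziglitazone. The intervals for Cyp2d3 were −0.45 to 0.50, −0.56 to 0.39 and −0.89 to 0.06, so a fall as large as that with ANIT lay outside each of them. No alternative, with or without the array labelled Roziglitazone 2, gave a call among the members for these compounds.

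DMN and DNP were given at the same dose, in the same vehicle and by the same route, and NMF and Caerulein shared vehicle and route, so these pairs compare the compounds without the untreated controls. DMN against DNP called 0 members higher and 9 lower (25%), against 3.85% of all genes higher and 3.04% lower. NMF against Caerulein called 0 higher and 8 lower (22.2%), against 3.43% higher and 2.06% lower. At an unadjusted p under 0.05 in limma, 2 members were higher and 17 lower in the first pair, where 9.4% and 11.9% of all genes were. In the second pair 1 was higher and 12 lower, where 9.36% and 8.03% of all genes were. The medians of the members were −0.45 and −0.31, and those of all genes −0.10 and −0.05. The means of these pairs have no array in common, but the pairs share that estimate of the spread. Cyp2a2, Cyp2d3 and Cyp2t1 were lower in both, which is 3 of the 9 (33.3%) and 3 of the 8 (37.5%). The call of Cyp2a2 in the first pair and that of Cyp2d3 in the second were lost without any 1 of several arrays, given below. Over all genes, 93 were lower in both, which is 21.5% and 31.7% of the lower calls. After centring, 1 member was lower in both, Cyp2t1, out of 6 (16.7%) and 3 (33.3%), where all genes gave 19.9% and 23%.

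Cyp2j3 was lower with DMN than with DNP by 2.89-fold (−1.53 ± 0.35, adjusted p = 0.00473), Cyp2d3 by 2.56-fold (−1.35 ± 0.27, adjusted p = 0.00134) and Cyp4f4 by 2.35-fold (−1.24 ± 0.23, adjusted p = 6.27e-04), and for Cyp4f4 all DMN rats lay below all DNP rats. Cyp2a2, Cyp2b21, Cyp2d4, Cyp2j4, Cyp2t1 and Cyp4f1 were the other members called. With NMF, Cyp2t1 was 2.29-fold (−1.20 ± 0.28, adjusted p = 0.00617), Cyp3a18 2.17-fold (−1.12 ± 0.29, adjusted p = 0.0161) and Cyp2d3 1.91-fold lower than with Caerulein (−0.93 ± 0.27, adjusted p = 0.0302). Cyp2a2, Cyp2b3, Cyp2c6v1, Cyp2c7 and Cyp3a23-3a1 were called lower too. Without the arrays in doubt, DMN against DNP gave 1 higher and 15 lower, against 5.91% of all genes higher and 5.19% lower. NMF against Caerulein then gave 1 higher and 8 lower, against 4.1% and 2.63% of all genes. The higher ones were Cyp4f5 (0.99 ± 0.25, adjusted p = 0.00745) and Cyp2j4 (0.74 ± 0.22, adjusted p = 0.0329). Fitted to the 10 arrays of the pair alone, DMN against DNP called 1 member, Cyp4f4. In the fit to all groups, Cyp2a2 was lost without DMN 1, 3 or 5 or DNP 1 to 4 (adjusted p between 0.0608 and 0.0999). Cyp2j4 was lost without DMN 1, 3 or 5 or DNP 1 to 5 (adjusted p between 0.0518 and 0.133). It was lost too under the replicate block (adjusted p = 0.0517). Cyp2b21 was lost without DMN 1 or 4 or DNP 1, 2 or 4 (adjusted p between 0.0538 and 0.0828). Centring lost Cyp2a2, Cyp2j4 and Cyp4f1 in that pair, and Cyp2b3, Cyp2c6v1, Cyp2c7, Cyp2d3 (−0.80, adjusted p = 0.0966) and Cyp3a18 (−0.99, adjusted p = 0.0579) for NMF against Caerulein. In that second pair Cyp2d3 was also lost under the replicate block (adjusted p = 0.057) and without any 1 of 7 arrays, namely Caerulein 1 to 4, NMF 1, NMF 4 and NMF 5, at an adjusted p between 0.0516 and 0.0764. There Cyp3a18 was lost too in the fit to those groups alone (adjusted p = 0.126) and without NMF 1 (adjusted p = 0.0938) or NMF 5 (adjusted p = 0.0759). After centring, NMF against Caerulein called 3 members lower and 1 higher, and the calls among all genes stood at 764 higher and 148 lower in place of 488 and 293. For DMN against DNP they stood at 932 and 171 in place of 548 and 432.

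**Figure D3:**
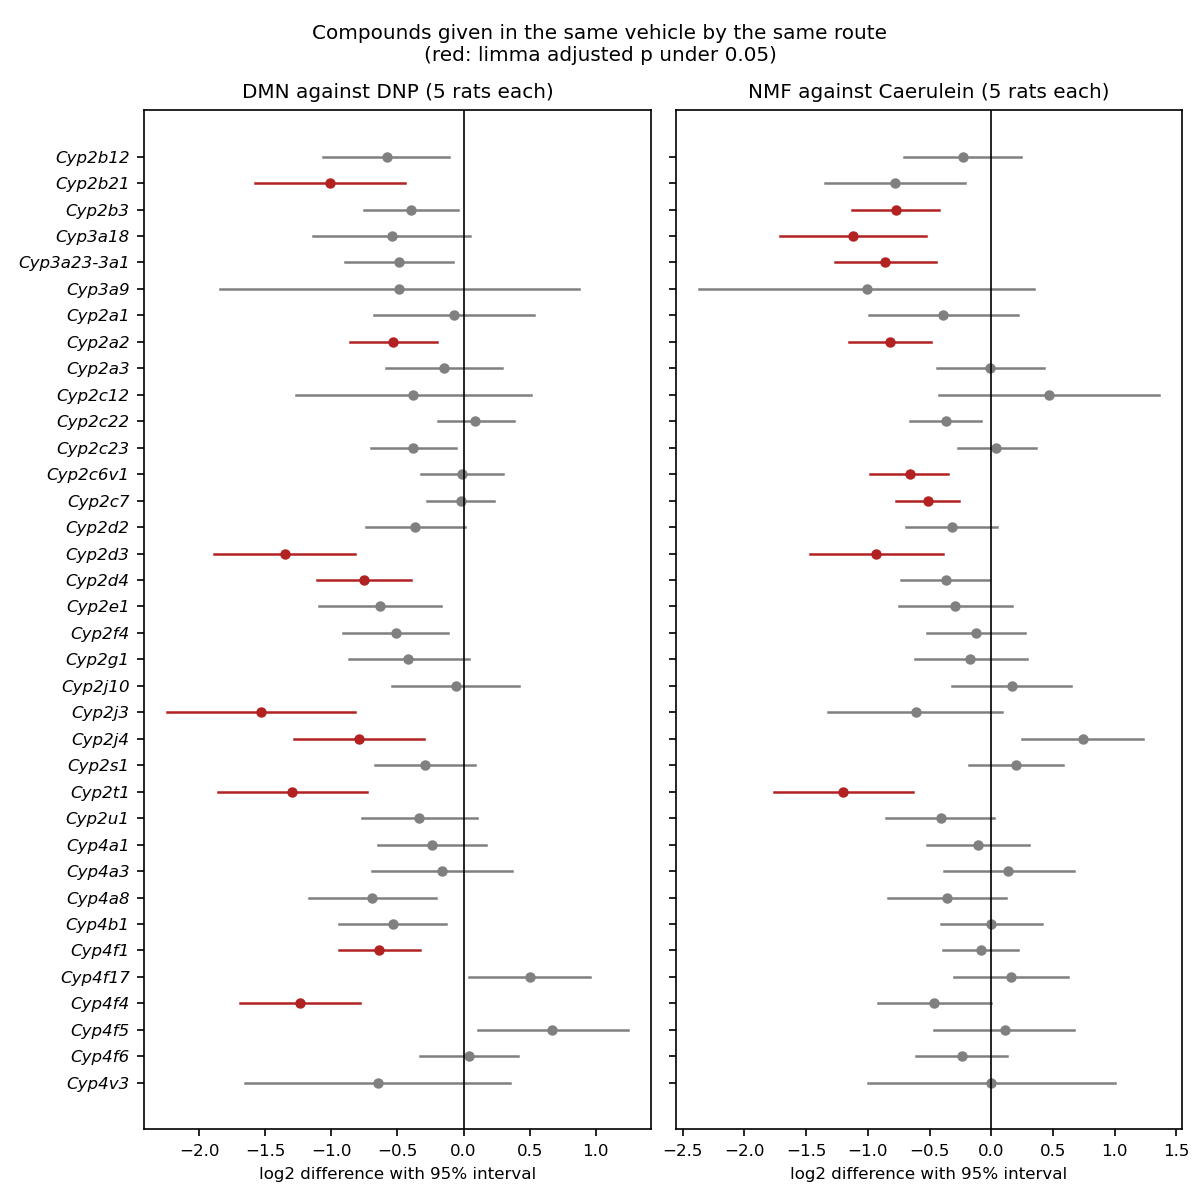
Log2 difference of each member with its 95% interval for DMN against DNP and for NMF against Caerulein (5 rats per group), with red marking an adjusted p under 0.05 in limma. All red points lie left of 0, 9 in the first panel and 8 in the second.

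Between the toxicants, few members were called. ANIT against DMN called 0 higher and 0 lower, against 1.46% of all genes higher and 1.07% lower. At an unadjusted p under 0.05 in limma, 3 of the 36 members were higher and 2 lower, where 8.31% and 8.06% of all genes were. Without the arrays in doubt, ANIT against DMN called 3 higher (Cyp2c12, Cyp2j3 and Cyp2j4) and 1 lower (Cyp4v3). That is 8.33% and 2.78%, against 4.08% and 3.77% of all genes. ANIT against NMF called 2 higher and 2 lower (5.56% each), against 3.76% and 2.86% of all genes. DMN against NMF called 1 higher (2.78%) and 3 lower (8.33%), against 3% and 1.66%. Dose and vehicle differ between these compounds, and NMF alone was injected. A second quantile normalization moved the calls among all genes for ANIT against NMF from 534 higher and 406 lower to 457 and 534.

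Of the 6 members called between toxicants, 3 were of the Cyp2c subfamily. Cyp2c6v1 was 1.43-fold higher with ANIT (0.51 ± 0.15, adjusted p = 0.0363) and 1.53-fold higher with DMN (0.61 ± 0.15, adjusted p = 0.012) than with NMF. Cyp2c7, at 13.33, 13.32, 13.51, 13.26 and 13.34 in the ANIT rats and 12.93, 13.06, 12.98, 12.98 and 12.74 in the NMF rats, was 1.33-fold higher with ANIT (0.41 ± 0.13, adjusted p = 0.0385), and the groups were apart. Cyp2c23 went the other way, with 12.46, 12.47, 12.64, 12.28 and 12.23 in the ANIT rats, 12.76, 12.63, 12.67, 12.86 and 11.63 in the DMN rats and 13.06, 12.89, 13.11, 12.99 and 13.08 in the NMF rats. It was 1.53-fold lower with ANIT (−0.61 ± 0.16, adjusted p = 0.0124) and 1.43-fold lower with DMN (−0.52 ± 0.16, adjusted p = 0.0446), and no NMF rat reached into either group. Cyp4f1 was lower with DMN than with NMF (−0.56 ± 0.15, adjusted p = 0.0193), as was Cyp2j4 (−1.04 ± 0.24, adjusted p = 0.00679), an enzyme of arachidonic acid and retinal metabolism. Cyp2s1 was lower with ANIT than with NMF (−0.59 ± 0.19, adjusted p = 0.049).

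These calls depended on the scaling and on the arrays used. After centring, ANIT against NMF called Cyp2s1 lower and Cyp4f5 higher (0.90, adjusted p = 0.0463) but neither Cyp2c6v1 (0.55, adjusted p = 0.0659), Cyp2c7 (0.45, adjusted p = 0.0844) nor Cyp2c23 (−0.58, adjusted p = 0.0677). DMN against NMF then called Cyp2c6v1 and Cyp2j4 but neither Cyp2c23 (−0.51, adjusted p = 0.154) nor Cyp4f1 (−0.56, adjusted p = 0.102). Without the 3 in doubt, ANIT against NMF called 1 higher and 2 lower, and Cyp2c6v1 (0.44 ± 0.16, adjusted p = 0.0829), Cyp2c7 (0.37 ± 0.14, adjusted p = 0.0751) and Cyp2s1 (−0.58 ± 0.20, adjusted p = 0.0601) were no longer called, while Cyp4f5 (0.85 ± 0.25, adjusted p = 0.0271) and Cyp4v3 (−1.60 ± 0.42, adjusted p = 0.0117) were. DMN against NMF then called 1 higher and 8 lower, the added ones being Cyp2c12, Cyp2d3, Cyp2f4, Cyp2j3 and Cyp4f4. Among all genes, 5.61% were then higher and 3.75% lower for ANIT against NMF, and 4.56% and 2.67% for DMN against NMF. Of the single arrays, leaving out DMN 2 gave 9 members for DMN against NMF and leaving out DMN 5 gave 7, where leaving out NMF 1 gave 1. For ANIT against NMF, leaving out NMF 1 or NMF 5 gave 1, and leaving out ANIT 1, ANIT 2, ANIT 3, ANIT 5 or NMF 2 gave 2.

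**Figure D4:**
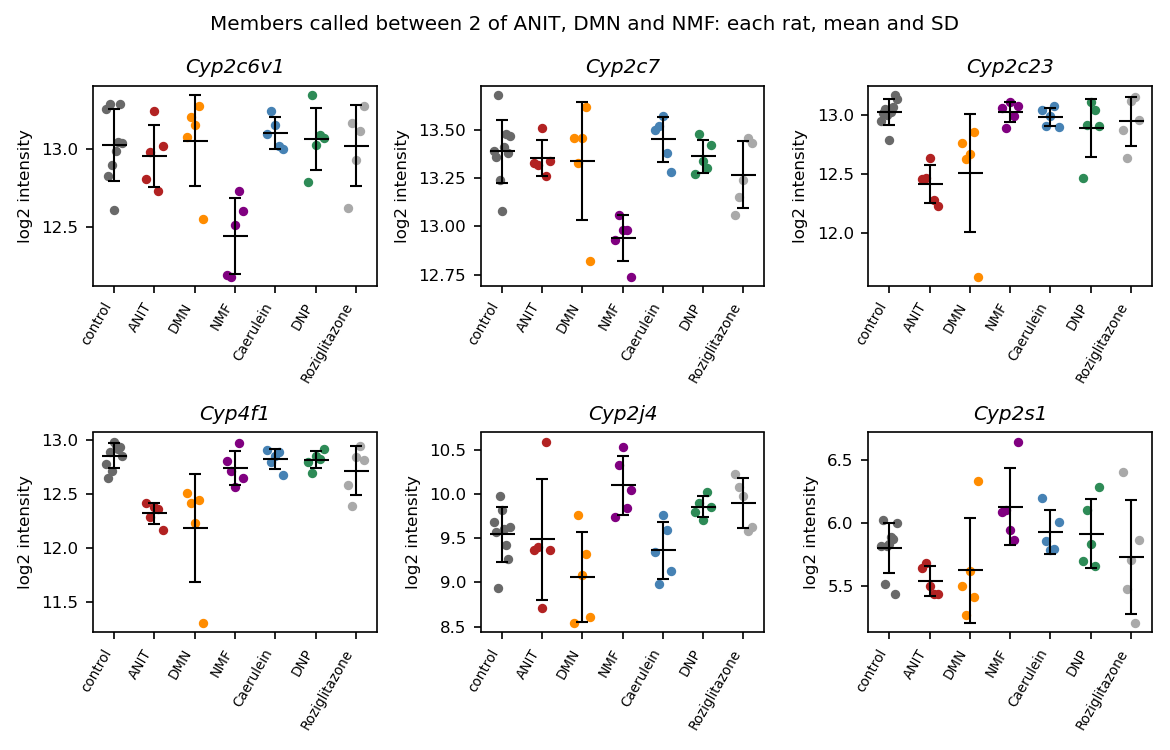
Log2 intensity in each rat (points) with group mean and SD (bars) for the 6 members called between 2 of ANIT, DMN and NMF (n = 9 controls, 5 per compound). The group means of Cyp2c6v1 and Cyp2c7 are lowest with NMF, and those of Cyp2c23 and Cyp4f1 are low with ANIT and DMN and near the controls with NMF.

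Some of the partners and regulators of these enzymes were called. Among all genes, 8.19% rose and 8.29% fell with ANIT, 5.87% and 4.53% with DMN, and 3.85% and 3.63% with NMF. Of 12 measured redox partners and heme enzymes, 1 rose and 1 fell with ANIT, 0 were called with DMN, and 1 rose and 0 fell with NMF, with medians of −0.23, −0.30 and 0.18. Alas1, the rate-limiting enzyme of heme synthesis, fell 1.84-fold with ANIT (−0.88 ± 0.23, adjusted p = 0.00814), and Por, the reductase, rose 1.42-fold (0.50 ± 0.16, adjusted p = 0.0247), a call lost after a second quantile normalization. Pgrmc1, a heme-binding partner of P450s, rose 1.53-fold with NMF (adjusted p = 8.76e-04). Of 11 measured nuclear receptors and hepatocyte factors, 2 fell with ANIT, 0 were called with DMN, and 1 rose and 2 fell with NMF, with medians of −0.12, −0.46 and −0.20. Nr1h4, the bile acid receptor, fell 2.30-fold with ANIT and 1.83-fold with NMF. Its target Nr0b2 fell 2.32-fold with ANIT, the glucocorticoid receptor Nr3c1 fell 1.88-fold with NMF, and Nr1i3, which encodes CAR, rose 2.41-fold with NMF (1.27 ± 0.37, adjusted p = 0.03). The NMF calls of Nr1h4 and Nr3c1 were lost after centring.

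Hepatocyte markers were abundant in every group. The summed intensity of 6 measured hepatocyte markers was 76147 to 96335 in the controls and 89160 to 96350 with ANIT. It was 93206 to 98863 with DMN and 86029 to 90282 with NMF. Of the 6, 1 was called higher with ANIT (Apoa1) and 1 lower with NMF (Apoc3, a call lost after centring). Apoa1 was called higher with DMN too after centring and after a second quantile normalization. By their sums these markers lay near the upper end of the deposited intensities, and the part of this was not tested. Of 6 measured markers of pericentral hepatocytes, the zone in which several P450s are most abundant, Oat and Slc1a2 fell with each toxicant. The other 4 were not called, although Tbx3 was called higher with ANIT after centring. The summed intensity of the 6 was 7025 to 8954 in the controls, 4162 to 4603 with ANIT, 3310 to 4609 with DMN and 2452 to 4534 with NMF. Their part in the differences of the members was not tested. Of 4 measured neutrophil markers 3 rose with DMN, with sums of 305 to 6976 against 329 to 1107 in the controls. Of 4 endothelial markers 2 fell with ANIT and 2 with DMN, of 6 stellate cell markers 1, 1 and 3 fell with ANIT, DMN and NMF, of 5 macrophage markers 1 fell with each, and of 4 cholangiocyte markers 1 rose with each while 1 fell with ANIT and with DMN. After centring, the calls of Krt19 with DMN, Stab2 with ANIT and Csf1r with NMF were lost. No marker of these lists had a group mean at or below 4.71, and the higher floor of 6.47 was not applied to them. Their part in the results was not tested either.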

How the data were processed

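Expression was measured on 39 Affymetrix rat arrays, 1 per rat, in 7 groups. The authors deposited linear intensities per probe set (5.4 to 23152.1), and per the submitters' processing notes RMA and the affy package were used, with versions not given in the sources used here. The plan had assumed log2 values, so log2 was taken here. Symbols were updated through gene IDs for 20758 of 20826 probe sets with 1 symbol, and the probe set with the highest mean stood for a gene. In limma 3.58.1 under R 4.3.3 (lmFit, contrasts.fit and eBayes), all arrays entered a single linear model holding a mean for each group, with Benjamini-Hochberg adjustment over 14217 genes and calls at an adjusted p under 0.05; the script was tested on simulated data. No filter on dim genes was applied. The labels call the animals biological replicates, and their number limits the precision. Values in every compound array, with the lowest, median and highest of the 9 controls, are given for members called with at least a 2-fold change from control, up to 6 per direction and comparison, and for Cyp2e1, Cyp2c6v1, Cyp3a9, Cyp3a18 and Cyp4a1. The members and lists were chosen with earlier results of these data known. Alternatives were other normalizations, filters, probe set rules, thresholds, weights and sample sets.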

Additional observations from a re-analysis of the deposited data

Results flagged for a closer look

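In 8 of the 84 groups of values examined, 1 rat stood apart from the rest of its group by Dixon's criterion, which chance alone meets in about 1 group in 20. The level of Cyp4v3 was 6.73 in ANIT 5, where the other ANIT rats had 9.99 to 10.95, and 8.31 in Roziglitazone 2, where the others had 10.60 to 11.51. Cyp2t1 measured 8.62 in Roziglitazone 2 against 10.09 to 10.35 in its group. For Cyp2e1, low rats occurred in 3 groups, at 12.26 in ANIT 5 (others 12.92 to 13.12), at 12.59 in NMF 4 (others 13.08 to 13.19) and at 12.99 in DNP 1 (others 13.41 to 13.52). Cyp2c6v1 was at 12.55 in DMN 5, below the 13.08 to 13.28 of the other DMN rats. A high value was found for Cyp2j3, at 11.77 in control 5, where the other controls had 10.81 to 11.27.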

How the results depend on the processing

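No alternative reversed the direction of a call. For ANIT, the count of 16 members called stayed within 1.5-fold under every alternative, and leaving out 1 array gave 14 to 18. For DMN, 11 members became 6 at an adjusted p under 0.01, 7 when fitted to the arrays of DMN and control alone, 18 with array weights and 18 without the 3 arrays in doubt, and 8 to 17 with 1 array left out, the highest without DMN 2. For NMF, 11 became 7 after centring and 9 to 11 with 1 array left out. For DMN against DNP, 9 became 1 in the fit to those groups alone, 18 with array weights and 16 without the arrays in doubt, and 6 to 15 with 1 array left out, the highest without DMN 2. For NMF against Caerulein, 8 became 4 after centring and 6 to 8 with 1 array left out. For ANIT against DMN, 0 became 1 without the 30% dimmest genes, 3 with array weights and 4 without the arrays in doubt, and 0 to 2 with 1 array left out, the calls appearing without ANIT 3 (2) or without DMN 2, DMN 4 or DMN 5 (1 each). For ANIT against NMF, 4 became 0 at an adjusted p under 0.01, 2 after centring and 14 with array weights, and 1 to 5 with 1 array left out. For DMN against NMF, 4 became 1 at an adjusted p under 0.01, 2 after centring, 0 in the fit to those groups alone, 13 with array weights and 9 without the arrays in doubt, and 1 to 9 with 1 array left out. The calls among all genes moved under some of these settings as well. With array weights, those for DMN went from 834 higher and 644 lower to 1708 and 1760. Those for ANIT against NMF went from 534 and 406 to 1634 and 1300. In the fit to those groups alone, DMN against DNP went from 548 and 432 to 183 and 83. The cause of these changes was not tested.

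With the replicate number as a block (replicate block), the members called were 13 for ANIT, 8 for DMN, 8 for NMF, 9 for DMN against DNP, 7 for NMF against Caerulein and 1 for ANIT against DMN, where Cyp2u1 was called lower. Cyp2d3 with NMF was then at −0.88 ± 0.29 (adjusted p = 0.0687). The numbers were not taken to pair the rats, since the labels name no litter, day or batch that same-numbered rats share. The deviations of same-numbered rats correlated above 0.1 throughout in 1 pair of groups out of 21 (58 of 105 single pairs did). Differently numbered rats were not set beside them, so these correlations cannot tell whether the numbers pair the rats. The 5 rats per compound limit which small differences can be called.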
